A study of Rattus norvegicus with 5 samples.

Results

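The 8 genes described are the angiogenic ligands Vegfa, Angpt1, Angpt2 and Apln, the endothelial receptors Kdr, Flt1 and Tek, and Esm1, a proteoglycan secreted by sprouting endothelium. They are 8 of 30017 gene symbols in the deposited tables, were selected by earlier readings of their levels in these same libraries, and were each matched to exactly 1 row by symbol. Their Ensembl identifiers are ENSRNOG00000010797 (Esm1), ENSRNOG00000019598 (Vegfa), ENSRNOG00000046829 (Kdr), ENSRNOG00000000940 (Flt1), ENSRNOG00000005854 (Angpt1), ENSRNOG00000016696 (Angpt2), ENSRNOG00000008587 (Tek) and ENSRNOG00000003984 (Apln). Because measured levels chose the genes, everything below is a description, and no test was made. Single cells were measured in 5 libraries of skin of Sprague-Dawley (SD) rats: skin taken 7, 14, 28 and 60 d after irradiation and control skin, 1 library each. According to the study's methods the rats were male, buttock skin received a single electron-beam dose after shaving, and control skin was another, unirradiated piece. No dose stands in the labels, and skin at 60 d is not covered in the study's methods. Without replicates, effects of irradiation cannot be told apart from those of animal, dissociation and library.

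Vascular endothelial growth factor A (Vegfa) is released by many cell types and binds Kdr, its main signalling receptor on endothelium, and Flt1, which binds it tightly and can act as a decoy. Angpt1, typically made by cells around the vessel, activates the endothelial receptor Tek and steadies the vessel wall, whereas Angpt2, stored and released by endothelium, usually opposes it. At the front of a new sprout a tip cell carries high levels of Esm1, Apln and Angpt2, and apelin, the product of Apln, acts on the receptor Aplnr of neighbouring endothelial cells.

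The libraries held 6012 to 12239 barcodes and 70073362 to 139566348 unique molecular identifiers (UMIs, counts of single captured transcripts), and the median depth per barcode was 4082 to 11650.5 UMIs. Between 4370 and 11304 cells per library passed the filters, with 6.4% to 25.5% of barcodes above the mitochondrial limit, the highest share being that of 14 d. Each cell was placed in 1 of 12 classes by a minimum number of marker genes, none of them a member. Cells that met 2 or more of these gates, 3.85% to 6.38% of those kept, were left out, and 3.84% to 19.6% met none. No doublet caller was run. Each library shared between 63 and 123 barcode sequences with the others. Endothelial cells numbered 118 in control skin and 207, 227, 73 and 44 on days 7, 14, 28 and 60. The 60 d class is thus the smallest. Class names stand for cells that are like the named type by these markers. Endothelial markers, which chose the class and so cannot check it, summed to between 4133 and 6131 CPM in endothelial cells, to between 240 and 359 in mural cells, to between 25.9 and 151 in mononuclear phagocytes and to between 2.11 and 12.4 in fibroblasts and keratinocytes. Fibroblast markers in endothelial cells summed to 1752 CPM in control and 1964, 66.7, 220.3 and 272 on days 7, 14, 28 and 60. Keratinocyte markers there summed to 1174 CPM in control and 660.2, 1389, 2698 and 2322 on those days, highest in the 28 and 60 d libraries. How far carried-over RNA bears on the levels below was not tested.

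Levels are UMIs of a gene per 1000000 UMIs of all cells of the class in that library (CPM), and brackets hold exact 95% Poisson intervals, or for a ratio the exact conditional binomial interval. All intervals cover counting error only, and they are too narrow where few cells hold most of the UMIs. Levels of different genes are not compared with each other beyond their order of magnitude, as 3′ counts are not scaled by capture efficiency.

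**Figure D1:**
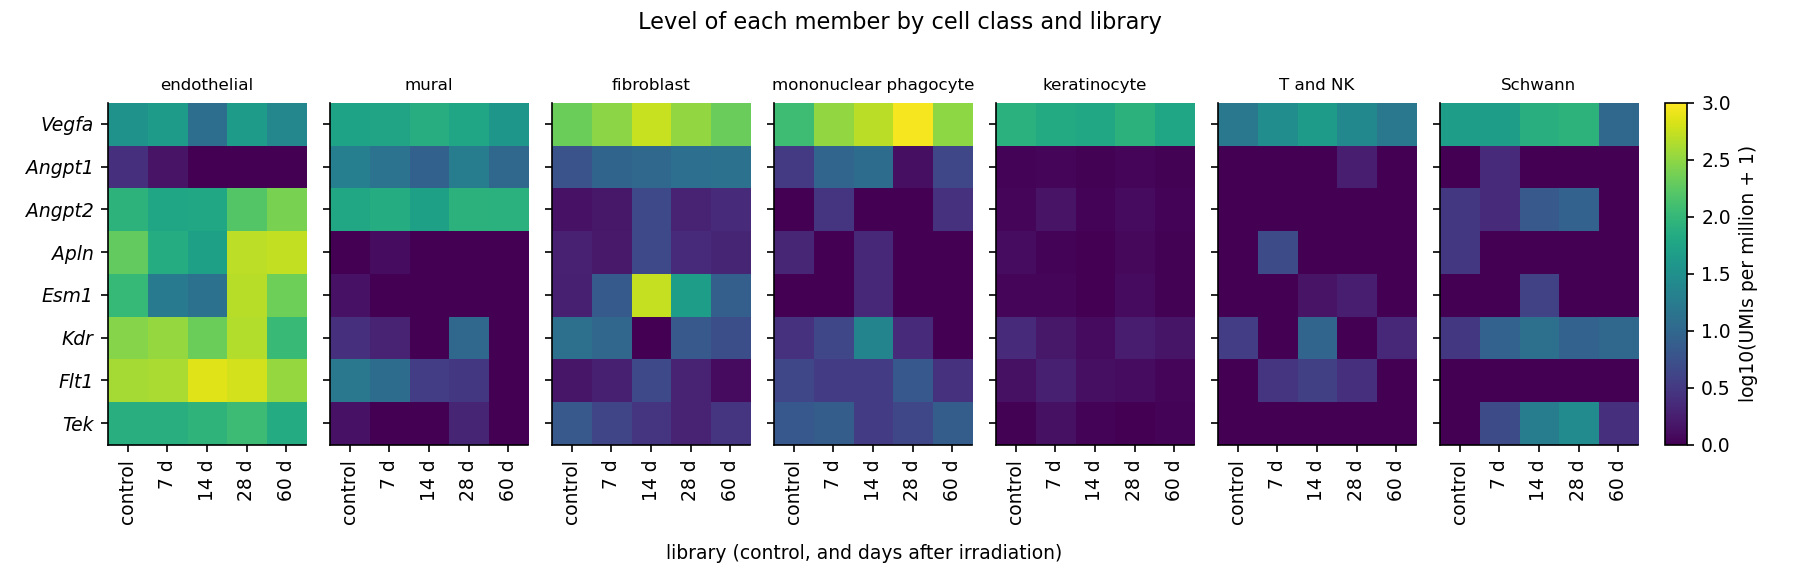
Level of the 8 members as log10(CPM + 1), by colour, in 7 cell classes (panels) and 5 libraries (columns, control and days after irradiation). Kdr, Flt1, Tek, Apln and Esm1 were brightest in endothelial cells, except for Esm1 at 14 d, when fibroblasts stood at 545 CPM, and Vegfa was brightest in fibroblasts and mononuclear phagocytes.

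Among the receptors, Kdr was detected at 282 CPM in endothelial cells of control skin and at 339, 210, 452 and 105 CPM on days 7, 14, 28 and 60. It was thus highest at 28 d and lowest at 60 d. The ratio to control was 1.60 [1.29, 1.99] at 28 d and 0.372 [0.239, 0.559] at 60 d, where only 9 of 44 cells held a Kdr UMI. In blood endothelial cells alone, a division made after values were seen, it was 2.41 [1.82, 3.20] at 28 d and 0.372 [0.208, 0.631] at 60 d. Kdr is also a receptor of lymphatic endothelium, and lymphatic cells held 422 CPM at 7 d and 360 in control, where they numbered 80 and 28.

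Flt1 in endothelial cells reached 389 CPM in control skin and 420, 708, 618 and 330 on days 7, 14, 28 and 60. The levels at 14 and 28 d lay above that of control, with ratios of 1.82 [1.58, 2.10] and 1.59 [1.32, 1.91]. Lymphatic endothelial cells carried next to none of it: 3 of 80 such cells held a UMI at 7 d, against 0 of 28 in control, which allows a share of cells with a UMI of up to 10.7% by 3 counts. Lymphatic cells made up 3 of 227 endothelial cells at 14 d and 28 of 118 in control, and the part of this makeup in the Flt1 levels was not tested. The ratio in blood endothelial cells alone was 1.33 [1.16, 1.54], 1.08 [0.933, 1.24], 1.38 [1.14, 1.66] and 0.635 [0.491, 0.815] on days 7, 14, 28 and 60, so in those cells the 14 d level was within counting error of control and the 60 d level was lower.

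Tek, the angiopoietin receptor, was the steadiest of the receptors by summed level. It stood at 77.8 CPM in control skin and 76.5, 88.4, 114 and 69.9 on days 7, 14, 28 and 60 in endothelial cells. No library lay apart from control by counting error. The ratio was 0.984 [0.716, 1.37], 1.14 [0.805, 1.62], 1.47 [0.948, 2.27] and 0.899 [0.494, 1.56] on days 7, 14, 28 and 60. A 2-fold difference is thus within reach of the counts at 28 and at 60 d. Under the alternative processings described below, the log2 ratio ran from -0.82 to 0.06 at 7 d and from -0.52 to 0.30 at 14 d. Both lower ends lay below the counting interval. It ran from -0.05 to 0.82 at 28 d and from -0.72 to 0.69 at 60 d. Fibroblasts, with many more cells, held 201 of the 266 Tek UMIs of all classes in control, at a level of 5.96 CPM, and the levels there were 3.19 at 7 d, 0.98 at 28 d and 1.90 at 60 d.

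Esm1 showed the largest spread over libraries in endothelial cells. Its level was 101 CPM in control skin and 16.9, 12.1, 475 and 217 on days 7, 14, 28 and 60. The ratio to control was 0.168 [0.11, 0.254], 0.121 [0.0625, 0.217], 4.72 [3.53, 6.38] and 2.16 [1.49, 3.13] on days 7, 14, 28 and 60. These sums rested on very few cells: 5 of 118 cells held an Esm1 UMI in control, and 7 of 207, 7 of 227, 19 of 73 and 3 of 44 cells did so on days 7, 14, 28 and 60.

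The share of endothelial cells with an Esm1 UMI was 4.24% [1.39, 9.61] in control skin and 3.38% [1.37, 6.84], 3.08% [1.25, 6.25], 26.0% [16.5, 37.6] and 6.82% [1.43, 18.7] on days 7, 14, 28 and 60 (exact Clopper-Pearson intervals). Only the share at 28 d lay apart from that of control. With every cell thinned to 1000 UMIs, which left out 0 shallower cells at 28 d and 12 in control, the share was 15.1% [7.77, 25.4] at 28 d against 1.89% [0.229, 6.65] in control. In keratinocytes, which are not known as a source of Esm1, the share in the same libraries was 0.319% at 28 d and 0.148% in control at median depths of 11154 and 10582 UMIs, against 4186 and 4136.5 in endothelial cells.

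At 60 d, 1 cell held 51 of the 56 Esm1 UMIs. In control, 1 cell held 37 of 66, and 3 cells held 95.5% of them. Without the cell with most UMIs in each library, the level at 60 d was 21.0 CPM against 46.2 in control, so the direction at 60 d turned with 1 cell. At 28 d the cell with most UMIs held 40 of 166, and without the leading cells the level was 367 CPM against the same 46.2 in control. In 7 d and 14 d skin the corresponding levels were 8.95 and 8.69 CPM.

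Apln, which encodes the ligand apelin, moved in the same directions as Esm1 in endothelial cells by summed level. It stood at 189 CPM in control skin and 71.2, 50.3, 503.5 and 524 on days 7, 14, 28 and 60, with ratios to control of 0.376 [0.296, 0.48], 0.266 [0.191, 0.366], 2.66 [2.10, 3.38] and 2.77 [2.16, 3.57] at 7, 14, 28 and 60 d. It was seen in 6 of 118 cells in control skin and 22 of 207, 18 of 227, 21 of 73 and 9 of 44 on days 7, 14, 28 and 60. A single cell held 119 of 135 UMIs at 60 d and 74 of 124 in control, in both cases the cell that held most Esm1 UMIs. Without the leading cell of each library, the level at 60 d was 67.1 CPM against 79.7 in control, so this direction also turned with 1 cell, and at 7 d the level was 55.5 CPM. By share of cells the 7 d library stood above control, with 10.6% against 5.08%, while its summed level was lower. At 28 d the share was 28.8% [18.8, 40.6], against 5.08% [1.89, 10.7] in control. In blood endothelial cells the ratio at 28 d was 1.62 [1.25, 2.10].

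Angpt2 in endothelial cells reached 85.4 CPM in control skin and 57.4, 62.4, 154 and 249 on days 7, 14, 28 and 60. The ratio was 1.81 [1.22, 2.68] at 28 d and 2.91 [2.001, 4.24] at 60 d. At 60 d, however, 5 lymphatic cells carried 42 of the 64 UMIs, and in the remaining 39 blood endothelial cells the level was 109 CPM, against 112 in control, a ratio of 0.975 [0.555, 1.67]. At 28 d blood endothelial cells kept a ratio of 1.85 [1.20, 2.86].

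**Figure D2:**
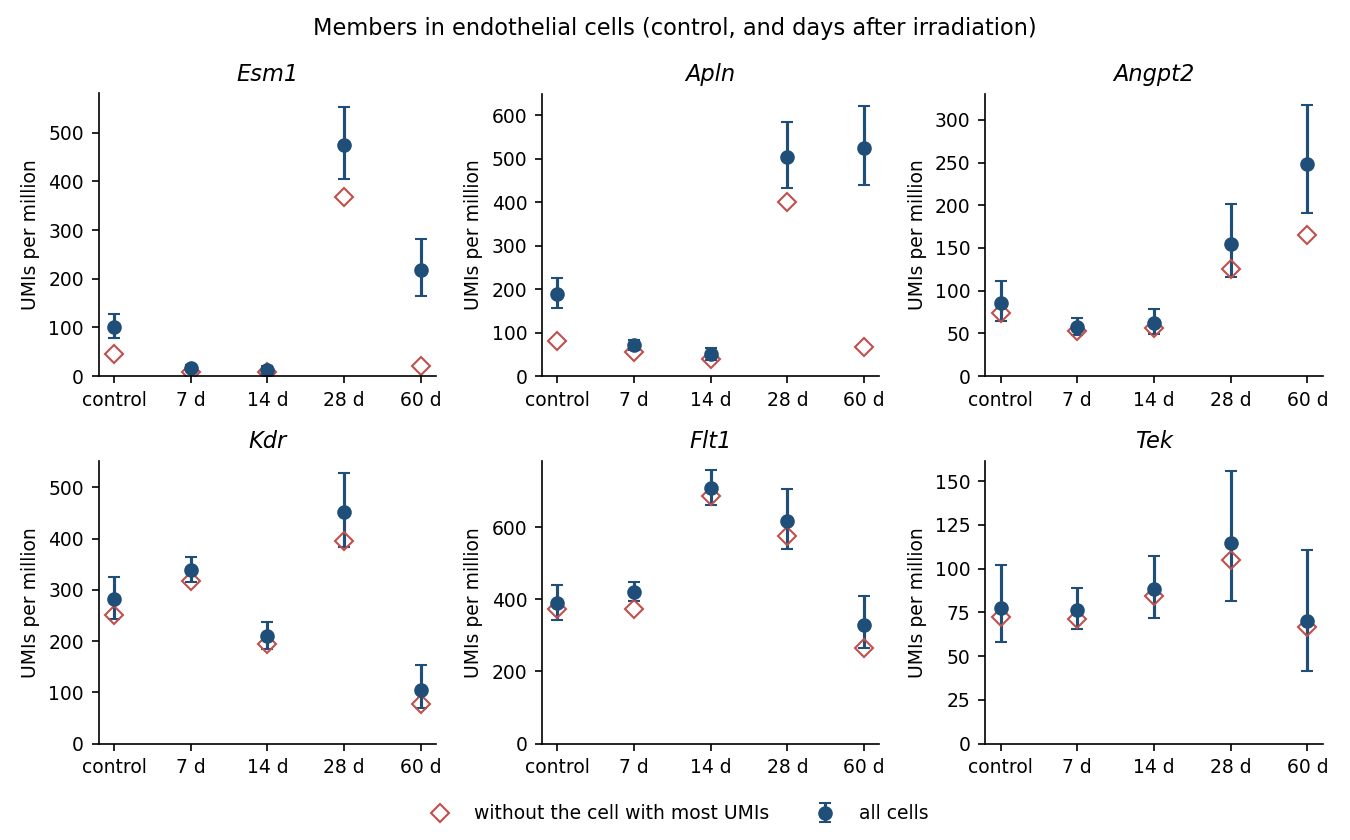
CPM of 6 members in endothelial cells of each library (control and days after irradiation). Filled circles are all cells with exact 95% Poisson intervals, and open diamonds leave out the cell with most UMIs of the gene in that library: at 60 d Esm1 then stood at 21.0 and Apln at 67.1, both below control, whereas at 28 d Esm1 stood at 367 and Apln at 401.

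Counted against all genes, 7 of the 8 members reached 20 UMIs over both libraries in endothelial cells, and Angpt1 did not. At least 2-fold differences either way were found for 2 of 7 at 7 d (lower: Esm1, Apln), 3 of 7 at 14 d (lower: Esm1, Vegfa, Apln), 2 of 7 at 28 d (higher: Esm1, Apln) and 4 of 7 at 60 d (higher: Esm1, Angpt2, Apln; lower: Kdr). Of all genes with that many UMIs, 12.4%, 19%, 23.4% and 29.1% passed the same mark on days 7, 14, 28 and 60. The members were chosen on these contrasts, so nothing is read from their counts.

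Within each library, blood endothelial cells with an Esm1 UMI carried more Apln, Angpt2 and Kdr relative to their UMI total than those without, although for Angpt2 at 7 d the intervals overlapped. At 28 d the 18 cells with Esm1 held 1080 CPM of Apln [878, 1315] and the 40 without it 166 [106, 247]. In the same cells Angpt2 stood at 415 and 76.1 CPM, and Kdr at 906 and 318 CPM. Flt1, at 1004 [809, 1231] and 858 [714, 1023], and Tek, at 142 and 145 CPM, had overlapping intervals. At 60 d the 3 cells with Esm1 held 3843 CPM of Apln and the other 36 held 47.5, and in control the 5 cells with Esm1 held 1864 CPM and the other 85 held 15.6. The 3 cells at 60 d held 119, 1 and 6 Apln UMIs, so that level rested mostly on 1 cell. In control 3 of the 5 cells held Apln, with 74, 38 and 6 UMIs.

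Kdr ran the same way in all 5 libraries, with 506 CPM in cells with Esm1 and 172 without in control, 511 and 218 at 7 d, 487 and 200 at 14 d, and 336 and 35.6 at 60 d. Flt1 did not: in control it was 332 CPM in cells with Esm1 and 731 in those without. Cells with Esm1 were also deeper, with a median of 4620 UMIs against 2588 at 28 d and 10115 against 3103 in control. The part of depth in these differences was not tested. At 28 d both genes were seen together in 12 cells, which is 66.7% of the 18 blood endothelial cells with Esm1 and 63.2% of the 19 with Apln. At 14 d only 1 of 7 cells with Esm1 also held Apln. Cxcr4, a chemokine receptor of tip cells, stood at 491 CPM in the cells with Esm1 at 28 d and at 41.5 in the others. It is given here for 28 d alone. Summed over all endothelial cells, Cxcr4 was at least 2-fold lower than control at 7, 14 and 60 d, and under 2-fold either way at 28 d.

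**Figure D3:**
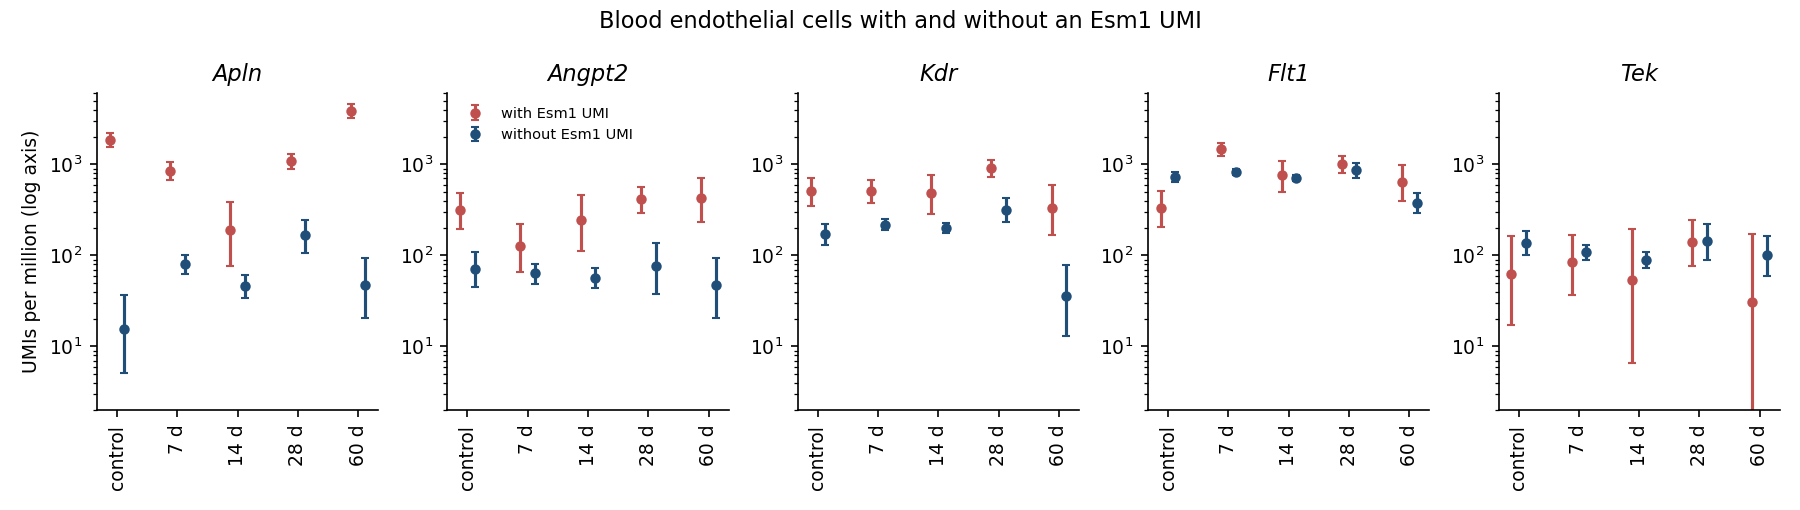
CPM (log axis) of 5 members in blood endothelial cells with an Esm1 UMI (red, left in each pair) and without (blue), by library, with exact 95% Poisson intervals. Apln, Angpt2 and Kdr were higher in the cells with Esm1 in all 5 libraries, by intervals that do not overlap at 28 d, while the intervals of Tek overlapped there.

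The promoters of Esm1 and Apln are shown because the summed endothelial levels of these genes moved in the same directions. At 60 d both levels rested mostly on 1 cell. RefSeq promoter entries on build GRCr8 matched 5 of the 8 members (Esm1, Vegfa, Kdr, Flt1 and Apln), and Angpt1, Angpt2 and Tek had none. The 250 bases before the annotated start lie at chr2:46609003-46609252 on the plus strand for Esm1 and at chrX:132091247-132091496 on the minus strand for Apln. Capitals mark the GC box, GGGCGG, on either strand:
Esm1: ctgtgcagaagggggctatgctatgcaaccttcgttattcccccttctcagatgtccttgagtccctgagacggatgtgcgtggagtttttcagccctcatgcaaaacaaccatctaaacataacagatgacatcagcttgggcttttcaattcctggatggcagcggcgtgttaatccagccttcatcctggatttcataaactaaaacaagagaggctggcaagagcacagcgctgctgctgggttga
Apln: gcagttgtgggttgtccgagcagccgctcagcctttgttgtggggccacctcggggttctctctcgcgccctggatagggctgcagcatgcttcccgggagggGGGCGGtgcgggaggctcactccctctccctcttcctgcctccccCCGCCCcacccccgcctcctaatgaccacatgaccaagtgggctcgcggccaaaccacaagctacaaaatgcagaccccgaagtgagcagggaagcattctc
The motifs searched on both strands in this window were ACGTG (1 form of the core of the hypoxia response element), TGANTCA (AP-1), GGGCGG (GC box), TATAAA (a core promoter element) and CCGGAAG (an ETS core). None of these motifs as written occurred before Esm1, and Apln held 2 GC boxes. The other form of the hypoxia core, GCGTG, was not searched, and it does occur in the Esm1 window printed above. Of 33469 promoter windows of the same length, 16.6% held ACGTG, 6.34% TGANTCA, 30.5% GGGCGG, 12.9% TATAAA and 7.27% CCGGAAG.

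Esm1 was also found outside the endothelium, in fibroblasts. Its level there was 0.83 CPM in control skin and 6.01, 545, 47.4 and 7.16 on days 7, 14, 28 and 60. All 4 irradiated libraries lay above control, with ratios of 7.25 [4.93, 11.1], 57.1 [37.9, 88.9] and 8.63 [5.08, 14.8] on days 7, 28 and 60. At 14 d the ratio was 657 [446, 1006], but only 76 fibroblasts remained in that library, against 2968 in control.

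The share of fibroblasts with an Esm1 UMI was 0.809% (24 of 2968) in control skin and 1.84% (113 of 6158), 18.4% (14 of 76), 3.81% (22 of 577) and 2.30% (14 of 609) on days 7, 14, 28 and 60. After thinning to 1000 UMIs it was 12.9% [6.05, 23.0] at 14 d and 0 of 2823 cells in control, and 6 and 145 shallower cells were left out. At 14 d, 1 cell held 101 of 303 UMIs, and without it the level was 375 CPM. Among the UMIs of all classes, fibroblasts held 351 of 393 at 7 d, 303 of 320 at 14 d and 145 of 327 at 28 d, against 28 of 103 in control.

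Endothelial markers were near 0 in fibroblasts with Esm1, which follows in part from leaving out cells that also met the endothelial gate. They summed to 1 UMI in the 14 such cells at 14 d (7.56 CPM) and 3 UMIs in the 22 at 28 d (15.6 CPM), against 9.45 and 12.2 CPM in fibroblasts without Esm1, and fibroblast markers to 59503 and 75761 CPM, against 83542 and 84017 CPM. None of the 5 leading Esm1 fibroblasts of any library held an Apln UMI. Genes looked up after their values were seen marked these cells. Wfdc1, a secreted protease inhibitor family member, stood at 3561 CPM in fibroblasts with Esm1 and 539 in those without at 14 d, and at 1835 and 248 CPM at 28 d. Cdh13, encoding T-cadherin, stood at 491 and 78.0 CPM at 14 d and at 544 and 41.1 CPM at 28 d. In control Wfdc1 stood at 625 and 205 CPM, while Cdh13 was alike, at 13.9 and 16.3 CPM. Fibroblasts with Esm1 were deeper, with a median of 8974 UMIs against 5808.5 at 14 d, and the part of depth was not tested.

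**Figure D4:**
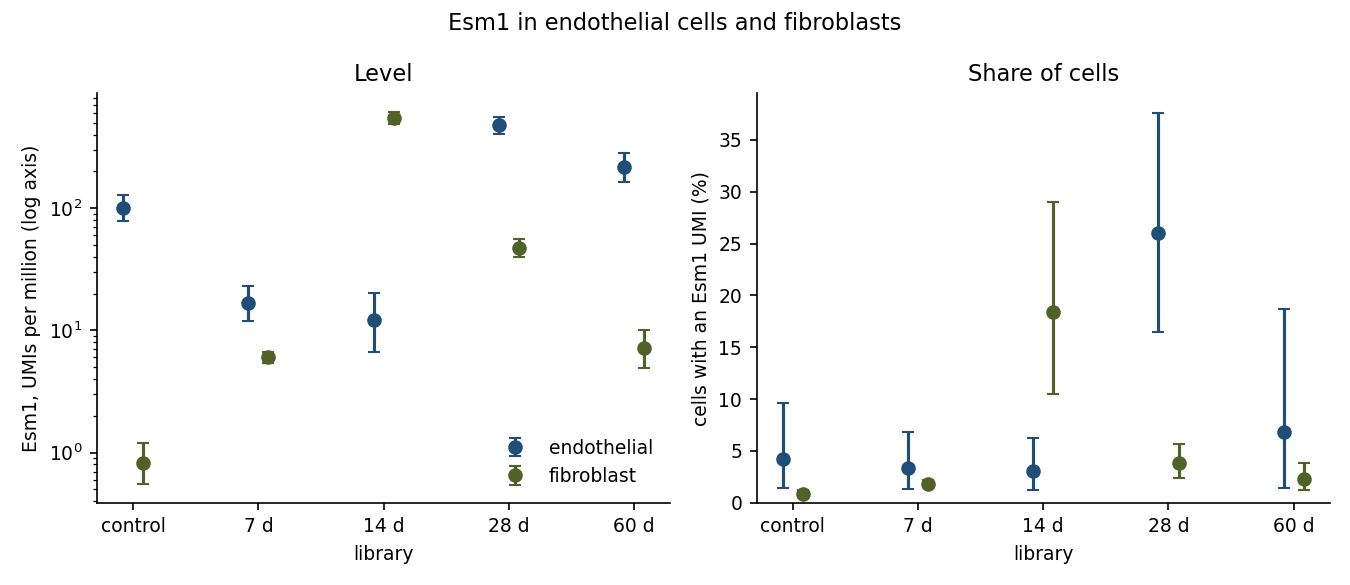
Esm1 in endothelial cells (blue) and fibroblasts (green) by library: CPM on a log axis (left) with exact Poisson intervals and percent of cells with a UMI (right) with exact binomial intervals, both 95%. The endothelial level was lowest at 14 d (12.1 CPM) and highest at 28 d (475), and the fibroblast level was highest at 14 d (545).

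Among the fibroblast comparisons, counted with 0.5 UMI added, 1 of 8 members with enough UMIs differed at least 2-fold from control at 7 d (Esm1, higher), 7 of 7 at 14 d, 4 of 7 at 28 d (Esm1, Flt1 and Angpt1 higher, Tek lower) and 4 of 6 at 60 d (Esm1 and Angpt1 higher, Kdr and Tek lower). Without the added 0.5 the ratio of Flt1 at 28 d was 1.84 on 3 UMIs and that of Angpt1 at 14 d was 1.86, both under 2-fold. The ratio of Kdr at 28 d was then 0.491, past it. Of all genes, 10.2%, 27.9%, 23.7% and 24.6% did so at 7, 14, 28 and 60 d. At 14 d Esm1, Vegfa, Flt1, Angpt1 and Apln were counted higher, and Kdr and Tek lower, but Kdr rested on 0 UMIs, against 404 in control, and Flt1, Angpt1, Apln and Tek on 1 to 5 UMIs each in the 76 cells.

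Vegfa was detected in every class of at least 50 cells. In control the fibroblast level was highest, at 213 CPM [208, 218], above mononuclear phagocytes (macrophages, monocytes and dendritic cells) at 117 [101, 134] and keratinocytes at 81.5 [79.2, 83.8]. Keratinocytes, myoblasts (66.2) and mural cells of the vessel wall (53.8) were neighbours with overlapping intervals. Among classes of at least 50 cells, mononuclear phagocytes stood first at 7, 28 and 60 d. At 14 d fibroblasts (556) and phagocytes (482) had overlapping intervals. At 7 d the interval of phagocytes, 306 to 355, also overlapped that of fibroblasts (303 [298, 307]). Neutrophils, with only 16 to 44 cells per library, are outside this order. Their level was 175 CPM in control (11 UMIs) and 471, 507, 650 and 810 on days 7, 14, 28 and 60 (19 to 34 UMIs). The ratio was 2.70 [1.23, 6.24], 2.90 [1.35, 6.63], 3.72 [1.84, 8.14] and 4.64 [2.10, 10.8] on those days, so phagocytes were not alone in standing above control. Endothelial cells, which carry Kdr and Flt1, stood among the last 3 classes in each library, between 11.3 and 43.6 CPM.

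In mononuclear phagocytes Vegfa reached 117 CPM in control skin and 330, 482, 921 and 306 on days 7, 14, 28 and 60. All irradiated libraries were above control, with ratios of 2.82 [2.41, 3.31], 4.12 [3.48, 4.89], 7.89 [6.85, 9.12] and 2.62 [2.14, 3.21] at 7, 14, 28 and 60 d. Unlike Esm1, this was spread over many cells: 63 of 285 phagocytes held a Vegfa UMI in control, and 149 of 338, 72 of 119, 489 of 600 and 41 of 95 did so on days 7, 14, 28 and 60. The cell with most UMIs held 1.07% of the Vegfa UMIs at 28 d. Thinned to 1000 UMIs the share was 50.8% [46.7, 54.8] at 28 d, against 8.09% [5.14, 11.99] in control, with 1 and 13 shallower cells left out. In T and NK cells, a class with little Vegfa, the unthinned share was 3.83% at 28 d and 6.17% in control. Their median depths were 1902.5 and 4558 UMIs, against 4468 and 6017 in phagocytes, so this share is not at equal depth with the thinned one.

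The makeup of the phagocyte class also differed between libraries, with its own markers at 21067 CPM in control skin and 14824, 6639, 11240 and 16396 on days 7, 14, 28 and 60. A division after values were seen set cells with UMIs of at least 2 of the 3 C1q genes, which mark resident macrophages, apart from the others. The cells with C1q held 20.4 CPM of Vegfa in control [12.1, 32.3] and 281, 575, 838 and 155 CPM on days 7, 14, 28 and 60, and in that order numbered 165, 150, 43, 178 and 35. Those without held 211 [182, 243], 360, 425, 951 and 355 CPM in the same order. Both kinds thus lay above their own control level in each irradiated library. At 60 d, however, the level of the cells with C1q rested on 23 UMIs in 4 of 35 cells, a share of 11.4% [3.20, 26.7], against 9.09% [5.18, 14.6] in control, and the part of cell makeup beyond C1q was not tested. Vegfa differed at least 2-fold in phagocytes at all 4 times, joined by Angpt1 at 7 d and Kdr at 14 d (19 UMIs, 11 of them in 1 cell), which made 2 of 3, 2 of 2, 1 of 3 and 1 of 1 members with enough UMIs on days 7, 14, 28 and 60. The same mark was passed by 14.2%, 24.3%, 23.6% and 26.1% of all genes on those days.

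In fibroblasts Vegfa was 213 CPM in control skin and 303, 556, 329 and 207 on days 7, 14, 28 and 60, with ratios of 1.42 [1.38, 1.46], 2.61 [2.32, 2.92], 1.54 [1.44, 1.65] and 0.972 [0.909, 1.04]. The 60 d level was within counting error of control. Keratinocytes ranged only from 59.4 CPM at 60 d to 84.8 at 28 d, with 81.5 in control, and the ratio was 0.832, 0.745, 1.04 and 0.729 on days 7, 14, 28 and 60. The median log2 ratio of all genes was 0.12, -0.53, -0.28 and -0.23 in keratinocytes and 0.13, 0.13, 0.23 and 0.31 in fibroblasts on days 7, 14, 28 and 60. With edgeR's TMM scaling, which shifts that median, Vegfa in keratinocytes turned to 0.07 at 14 d, and in fibroblasts it stood at -0.35 at 60 d (log2 ratios). In keratinocytes 2 of 3 members with enough UMIs passed 2-fold at 7 d (Flt1 higher, Kdr lower), 1 of 3 at 14 d (Kdr lower), 0 of 6 at 28 d and 3 of 4 at 60 d (Kdr, Flt1 and Apln lower), Vegfa at no time, against 15.3%, 41.7%, 26.5% and 23.5% of all genes on those days. By number of UMIs, keratinocytes held 6939 of the 8275 Vegfa UMIs of all classes at 60 d and 4871 of 12501 in control, and phagocytes 2705 of 9293 at 28 d, against 208 in control. These sums follow the cells captured as well as the level.

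**Figure D5:**
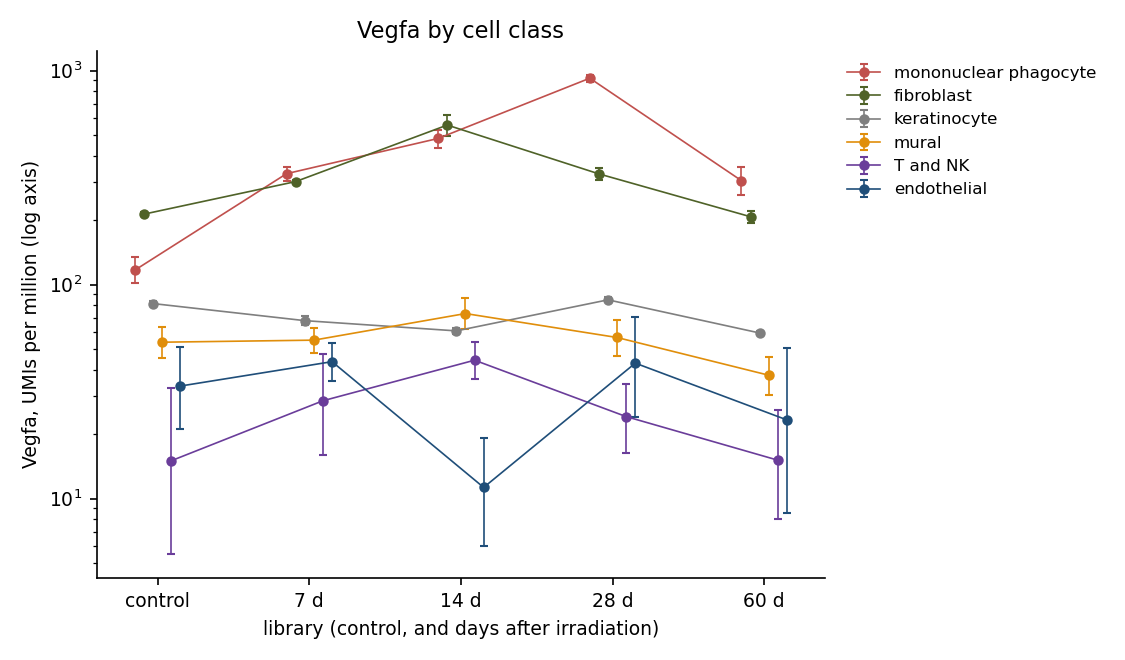
Vegfa CPM (log axis) in 6 cell classes by library, control and days after irradiation, with exact 95% Poisson intervals. Mononuclear phagocytes stood at 921 CPM at 28 d and 117 in control, while keratinocytes stayed between 59.4 and 84.8.

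Of the angiopoietins, Angpt2 was found in mural as well as in endothelial cells. In mural cells, which include pericytes and smooth muscle, it stood at 61.9 CPM in control skin and 71.3, 49.6, 83.5 and 80.5 on days 7, 14, 28 and 60. The ratio was 1.35 [1.08, 1.69] at 28 d and 1.30 [1.05, 1.61] at 60 d, under 2-fold at each time. Pericytes were rare in 3 libraries (4, 16 and 2 cells on days 14, 28 and 60), so mural values there are those of smooth muscle-like cells. Mural cells held 205 of 284 Angpt2 UMIs of all classes at 60 d, in 145 of 390 cells, and 160 of 237 in control, in 120 of 447 cells.

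Angpt1 was scarce. In mural cells it stood at 18.6 CPM in control skin [13.7, 24.6] and 13.05, 7.52, 17.6 and 9.42 on days 7, 14, 28 and 60. Mural cells ranked first in control and at 7 and 28 d, but phagocytes (10.3) did so at 14 d and fibroblasts at 60 d, and only in control did the interval of the first class lie apart from that of the next. At 14 d the mural level was 15 UMIs, a ratio of 0.405 [0.211, 0.736]. Pericytes made up 88 of 447 mural cells in control and 4 of 323 at 14 d, and the part of this makeup was not tested. Under the alternative processings described below, the mural log2 ratio ran from -1.65 to 0.11 at 28 d and from -3.39 to -0.86 at 60 d. In fibroblasts Angpt1 stood at 4.83 CPM in control skin and 8.38, 9.0, 11.4 and 12 on days 7, 14, 28 and 60, and the ratio was 1.73 [1.45, 2.08] at 7 d, 2.37 [1.59, 3.43] at 28 d and 2.49 [1.80, 3.38] at 60 d. Under thinning to 1000 UMIs the log2 ratio of Angpt1 in fibroblasts was 0.95 at 28 d and 0.20 at 60 d, both below 2-fold, and with the mean of per-cell shares it was 0.72 at 28 d. Endothelial cells held at most 1 Angpt1 UMI in any library.

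The 9 lists of genes around this pathway were read in endothelial cells, the median log2 ratio of all genes being 0.01, -0.02, 0.06 and 0.04 on days 7, 14, 28 and 60. The list of tip and sprouting genes, which holds Esm1, Apln and Angpt2 themselves, had all 16 members measured. At 7 d 0 were at least 2-fold higher and 7 lower than control, at 14 d 2 and 9, at 28 d 7 and 2, and at 60 d 4 and 4. The median log2 ratio was -0.83, -1.09, 0.90 and 0.56. At 60 d the higher genes were Esm1, Apln, Angpt2 and Pdgfb, and the lower ones Dll4, Cxcr4, Plaur and Nid2. The sums of Esm1 and Apln at 60 d rested mostly on 1 cell, and that of Angpt2 mostly on lymphatic cells. For this and the other lists the share of all genes past 2-fold either way is again 12.4%, 19%, 23.4% and 29.1% on days 7, 14, 28 and 60, and nothing is called particular to a list. Besides the members, Col4a1, a basement membrane collagen chain, stood at 970 CPM in control skin and 554, 1244, 3090 and 1153 on days 7, 14, 28 and 60. Mcam, an adhesion molecule of vessels, stood at 45.7, 65.8, 180, 495 and 69.9 CPM in the same order. Plaur, the urokinase receptor, ran against the list at 28 d, with 2.86 CPM against 172 in control, and Pgf, a VEGF family ligand that binds Flt1, stood at 28.6 against 62.5.

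The other lists held 1 to 15 measured genes. Of 5 VEGF receptors and co-receptors, 0, 1, 1 and 0 were higher and 0, 2, 0 and 2 lower on days 7, 14, 28 and 60. Nrp1, a co-receptor of VEGF, was higher at 14 d (192 CPM) and at 28 d (200), against 91.5 in control. Flt4, the receptor of lymphatic endothelium, was 12.1 CPM at 14 d and 38.8 at 60 d, against 88.4 in control, while lymphatic cells numbered 3 and 5. Flt4 is itself among the markers that set lymphatic cells apart, so its level and their number are tied in part by construction. In the angiopoietin-Tie list, 0 of 4 genes measured passed 2-fold at 7, 14 or 28 d, and 1 did at 60 d (Angpt2, higher). That list also holds Tie1, a marker of the endothelial gate. In the apelin list, Aplnr was higher and Apln lower at 7 and 14 d, and Apln alone had enough UMIs later and was higher. Aplnr, the apelin receptor, held 40 UMIs at 14 d (34.7 CPM) and 2 in control. Among 14 or 15 hypoxia targets measured, 1, 1, 0 and 0 were higher and 1, 4, 1 and 0 lower on days 7, 14, 28 and 60, with medians of 0.10, -0.07, 0.08 and -0.08 (log2). Aldoa, the most abundant of them, a glycolytic enzyme, stood at 460 CPM in control skin and 559, 720, 584 and 536 on days 7, 14, 28 and 60.

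Of 9 or 10 Notch and stalk genes measured, 0, 1, 1 and 2 were higher and 1, 0, 0 and 1 lower on days 7, 14, 28 and 60. Eng, a TGF-beta co-receptor of endothelium, led that list with 370 CPM in control skin and 479, 799, 732 and 423 on days 7, 14, 28 and 60. The list of quiescent, venous and arterial genes, which also holds Esm1, had 5, 3, 4 and 3 higher and 2, 1, 2 and 1 lower on days 7, 14, 28 and 60. Its leukocyte adhesion genes Sele and Selp stood at 374 and 640 CPM at 14 d, against 3.05 and 131 in control. In the list of other factors, Cxcl12, a chemokine, was 947, 463 and 881 CPM on days 14, 28 and 60, against 229 in control, and of the 5 to 8 genes measured 0, 2, 1 and 3 were higher and 0, 2, 1 and 1 lower on days 7, 14, 28 and 60, with medians of 0.14, -0.19, -0.03 and 0.84 (log2). Of 3 VEGF ligands measured, none was higher, and 1, 2, 1 and 0 were lower at 7, 14, 28 and 60 d, with medians of -0.28, -1.55, 0.13 and 0.88 (log2).

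Patterns like those of Esm1 and Vegfa were sought over 37 pairs of a class and a library with at least 50 cells, by Pearson's r of log2(CPM + 10) among 6268 genes. Pairs share libraries and classes, so r is a description. The genes most like Esm1 were Lbp (0.83), Mmp10 (0.77), Lcn2 (0.77), Cgnl1 (0.77) and Cxcl12 (0.74), and among the members Apln came nearest at 0.70. The genes most like Vegfa were Il1r2 (0.89), Gpnmb (0.84), Anpep (0.79), Tnfsf13 (0.76) and Ctsb (0.75), whereas Kdr was at -0.23 and Flt1 at -0.27.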

How the data were processed

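Single-cell libraries were made by the authors with 10x chemistry and, according to the submitters' processing notes, Cell Ranger 5.0.0, STAR, Seurat 3.1.1 and the build Rnor_6.0. The authors deposited unnormalized UMI counts for every barcode and gene. Rows sharing a symbol were summed. Barcodes with at least 500 UMIs, 300 genes and at most 20% mitochondrial UMIs were kept. A marker was on when it had a UMI and at least 0.25 of its share in the whole library, and a class needed 2 to 5 markers on (endothelial 3, mural 5, fibroblast 4, keratinocyte 5, mononuclear phagocyte 4). Within each class the UMIs of all cells were added up. Ratios are given from 10 UMIs, 2-fold counts from 20 UMIs with 0.5 added, and a count of 0 was set to 3 counts for ratios. The members, lists and comparisons were chosen with earlier results of these data known, and gates were set after marker values were seen. Named genes are the members, the most abundant or 2-fold differing genes of each list, and the 5 genes most like Esm1 and Vegfa. Fibroblast genes beside Esm1 and the C1q and blood endothelial divisions were chosen after values were seen. Ratio intervals were tested on simulated Poisson class sums only. These leave out the clumping of UMIs in single cells, so that test cannot show how well the intervals cover such counts. Python 3.11.15, numpy 2.4.6, scipy 1.17.1, pandas 2.3.3, R 4.3.3 and edgeR 4.0.16 were used.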

Additional observations from a re-analysis of the deposited data

Results flagged for a closer look

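Ratios past 2-fold in opposite directions in 2 or more classes at the same time, on at least 20 UMIs over both libraries and with intervals that leave out 1, were seen for 4 members, and none of these differences was tested. Angpt1 at 60 d just missed this mark, with log2 ratios of 1.31 in fibroblasts and -0.98 in mural cells. The log2 ratio to control of Esm1 was 2.86 in fibroblasts and -2.57 in endothelial cells at 7 d, and 9.36 in fibroblasts and -3.05 in endothelial cells at 14 d. Vegfa at 14 d was at 1.38 in fibroblasts, 2.04 in mononuclear phagocytes and 1.56 in T and NK cells, but at -1.57 in endothelial cells, where it rested on 13 UMIs. Vegfa at 60 d was at 1.39 in phagocytes and -2.34 in Schwann cells, on 6 UMIs.

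Kdr at 14 d was at 3.70 in mononuclear phagocytes (19 UMIs, 11 of them in 1 cell), at most -1.15 in fibroblasts (0 UMIs) and -2.54 in keratinocytes. Kdr at 28 d was at 2.59 in mural cells, where 2 cells held all 18 UMIs, and at -1.03 in fibroblasts. Apln at 60 d was at 1.47 in endothelial cells and -2.29 in keratinocytes, on 6 UMIs.

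In cells left out because they met 2 or more gates, Esm1 stood at 27.9 CPM at 28 d (228 UMIs), against 4.01 CPM in control (34 UMIs). Of these, 11 cells that met the endothelial gate among others held 202 UMIs at 28 d, more than the 166 of the endothelial class, and they also held 208 UMIs of Apln.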

How the results depend on the processing

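Log2 ratios to control of 56 results were recomputed under 10 alternatives, 1 of them chosen after seeing the data. Of 528 values, 437 stayed within the counting interval of the value reported, 87 moved outside it and 4, all of results past 2-fold, changed sign. Sign changes also occurred in 24 of the 320 values of the 34 results under 2-fold, in 13 of these results. Of 22 results past 2-fold, 13 stayed past it throughout. For Esm1 in endothelial cells, 7 d and 14 d gave -1.84 and -2.06 with the mean of per-cell shares and -1.26 and -0.94 thinned to 1000 UMIs. At 28 d it gave 3.15 with 1 more marker, 3.34 with cells of 2 or more gates kept, 2.88 with per-cell shares, 3.22 thinned and 2.99 without the leading cells. At 60 d Esm1 gave 0.93 with 1 more marker, 0.94 with cells of 2 or more gates kept and 0.92 with edgeR TMM scaling. It gave 0.59 there with per-cell shares and 0.69 in blood endothelial cells, and it turned to -1.14 without the leading cells. For Apln, 7 d gave 0.55 with per-cell shares, the opposite sign, -0.62 thinned and -0.52 without the leading cells, and 14 d gave -1.25, -0.77 and -1.04 under these and -2.66 in blood endothelial cells. At 28 d Apln gave 2.32 with 1 more marker, 2.34 with cells of 2 or more gates kept, 2.59 with per-cell shares, 2.06 thinned, 2.33 without the leading cells and 0.70 in blood endothelial cells. At 60 d it gave 1.05 with cells of 2 or more gates kept, 1.91 with per-cell shares, 0.84 thinned, -0.25 without the leading cells and 1.05 in blood endothelial cells. Angpt2 at 60 d gave -0.037 in blood endothelial cells. Vegfa in mononuclear phagocytes gave 1.88, 2.48, 3.28 and 1.85 at 7, 14, 28 and 60 d with 1 more marker, 2.37 and 3.34 at 14 and 28 d with per-cell shares, and 2.54 and 3.26 thinned. Vegfa in fibroblasts gave 0.41, 0.39 and -0.35 at 7, 28 and 60 d with edgeR TMM scaling, 0.58 at 7 d thinned, 1.20 at 14 d with at least 1000 UMIs and at most 10% mitochondrial UMIs, and 0.51 and -0.16 at 28 and 60 d with per-cell shares. Esm1 in fibroblasts gave 8.61, 4.21 and 2.32 at 14, 28 and 60 d thinned, with control at the floor of 3 counts, and 5.20 at 28 d with per-cell shares. Beyond the alternatives' own construction the cause was not tested. The share of all genes past 2-fold stayed within 1.5 times under other minimums and TMM scaling. No paired analysis was possible because each group holds 1 library. Depth limits Tek and Angpt1 in endothelial cells, and the 60 d endothelial class most.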

Other observations

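Among cells that met no gate, Kdr stood at 58.1 CPM at 14 d (143 UMIs in 858 cells), against 10.4 CPM in control (35 UMIs in 845 cells), and Vegfa at 259 against 121 CPM. Lymphatic endothelial cells at 28 d, 15 in number, held 53 Apln UMIs, 42 of them in 1 cell, against 1 UMI in 28 lymphatic cells of control. In mural cells Flt1 stood at 14.7 CPM in control skin, at 10.5, 2.51 and 2.08 CPM on days 7, 14 and 28 and at 0 UMIs on day 60. The control level came mostly from pericytes, which held 22 of the 38 UMIs.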
